A study of Mus musculus with 6 samples.

Results

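Macrophages and microglia are myeloid cells that derive from hematopoietic progenitors under the transcription factor PU.1 (gene Spi1), live on signals through the receptor CSF1R, and clear debris with Fc, complement and scavenger receptors and lysosomal proteases. In a dorsal root ganglion, macrophages sit among the cell bodies of sensory neurons and their satellite glia, and they multiply and engulf debris after axon injury. Here 34 genes of these cells, taken by name from a written list rather than by a threshold on their values, were followed through 6 RNA libraries. The list was chosen with earlier results of these data known, so its counts beside those of all genes are descriptions. All 34 were found once among the 47643 gene identifiers of each library.

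Dorsal root ganglia of embryonic day 13 CD-1 mice were given a lentivirus with either a control hairpin (shControl, 3 libraries) or a hairpin against Uhrf1 (shUHRF1, 3 libraries). UHRF1 binds hemimethylated DNA and brings the methyltransferase DNMT1 to it. The study's design text describes the neurons as uninjured and asks what a Uhrf1 knockdown changes in their transcripts. Each group carries a virus, and no library without virus was analysed here. Nothing in the labels says that libraries of a group came from separate cultures or litters, so p-values cover only library-to-library spread, possibly technical. All of this is bulk RNA, in which more cells of a type and more RNA per cell cannot be told apart.

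Libraries held 15599776 to 22382813 reads in genes. Uhrf1 itself had 8, 6 and 5 reads in shControl and 2, 1 and 5 reads in shUHRF1, so the hairpin's target was near the detection limit. Sensory neuron markers were abundant in every library, with levels summed over 10 genes of 17178 to 25989 CPM (reads of a gene scaled by library size). The share of all reads in a table that lay outside annotated genes was highest in the replicates numbered 2, at 14.1% in shControl and 17.2% in shUHRF1, against 8.43% to 11.1% in the other libraries. CPM values below are scaled with TMM factors, fold changes compare shUHRF1 with shControl, and "called" means an adjusted p below 0.05 in edgeR's quasi-likelihood test over all tested genes.

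Most macrophage genes lay just above the detection limit in shControl and were higher in shUHRF1, while the abundant gene of the list, Coro1a, fell. In shControl 27 of the 34 genes had a mean below 1 CPM, and 3 had at least 5 CPM (Coro1a, Csf1 and Il34). Pooled over the libraries of a group and scaled for depth, 28 of the 34 genes had more reads in shUHRF1, and 24 had over 2-fold more. Among the 31421 genes with any read, 57% had a ratio above 1 and 25.7% a ratio above 2-fold. The median ratio was 3.27 for the 34 genes and 1.11 for all genes with a read. For 18 of the 34 every shUHRF1 library lay above every shControl library, which held for 15.2% of all genes with a read, and for 2, Coro1a and Il34, every shUHRF1 library lay below, against 12.3%. Restricted to at least 10 pooled reads, 30 of the 34 remained. Of these 30, 22 lay above 2-fold (15.7% of all such genes), 1 below 1/2 (6.36%), 18 were higher without overlap (20.3%) and 2 lower without overlap (17.3%). Restricted further to a mean below 10 CPM, 29 remained, of which 22 lay above 2-fold (25.1%), 0 below 1/2 (6.64%), 18 higher without overlap (21.8%) and 1 lower without overlap (7.52%).

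**Figure D1:**
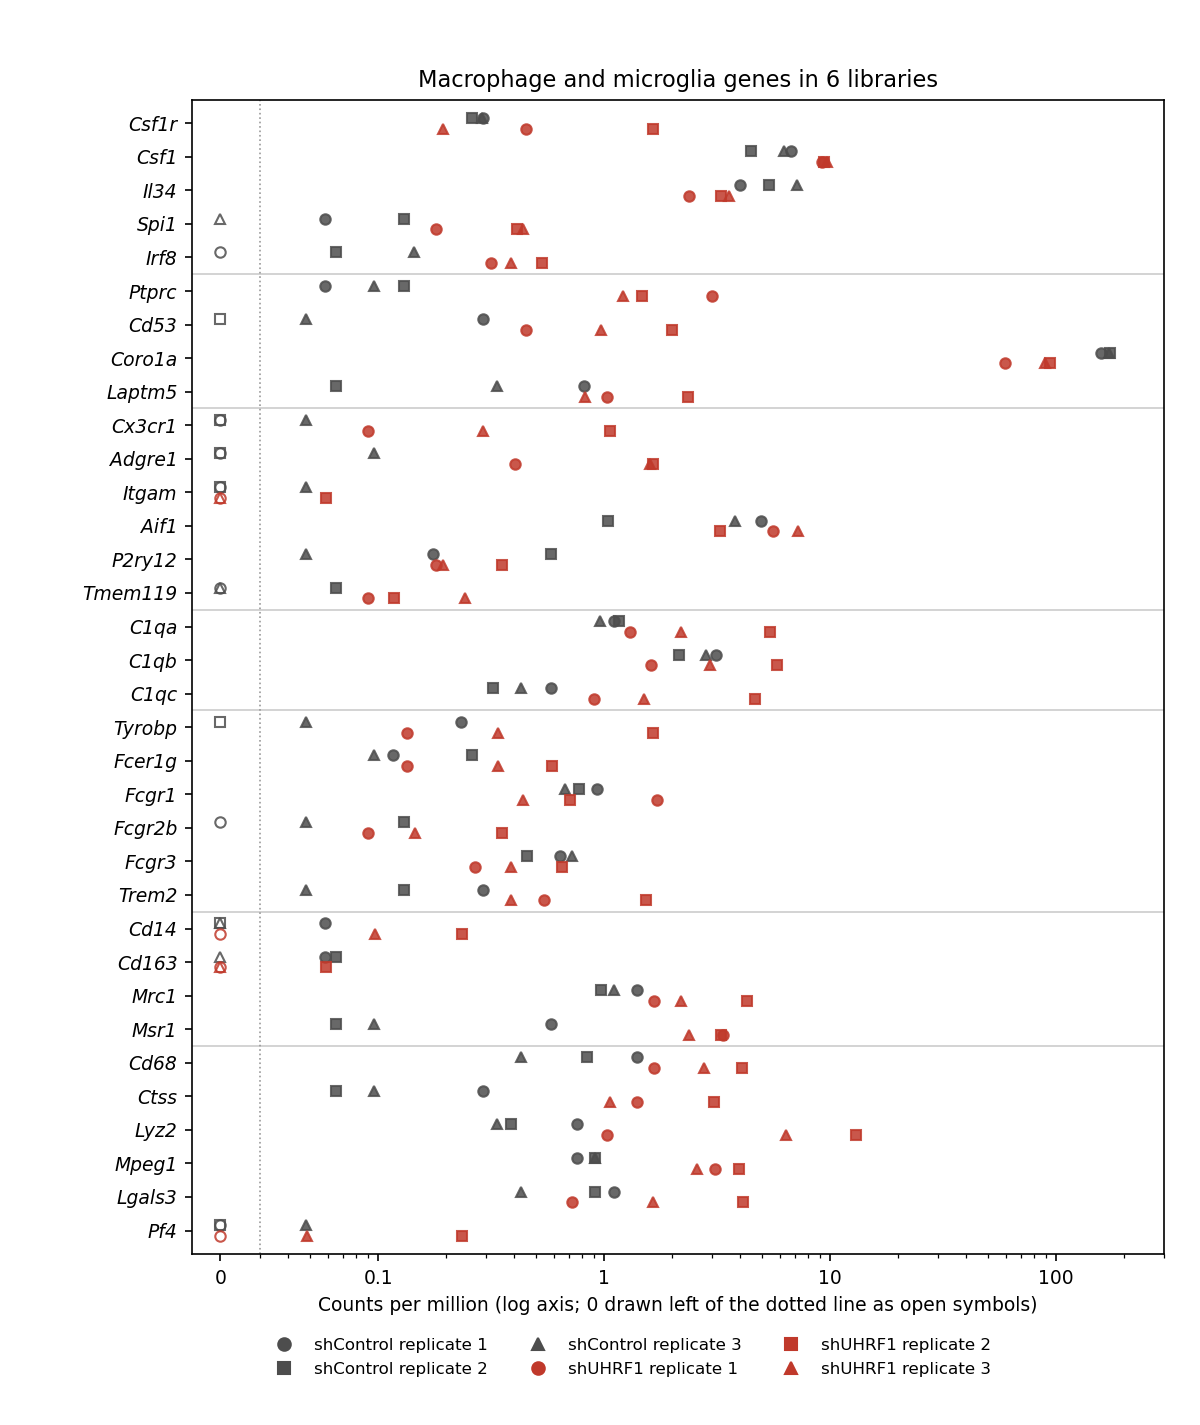
CPM of the 34 macrophage and microglia genes (rows, grouped by role) in 3 shControl libraries (grey) and 3 shUHRF1 libraries (red), on a log axis with values of 0 drawn as open symbols at the left. Coro1a stands at 158 to 173 CPM with shControl, against 59.2 to 94 CPM with shUHRF1, while most other genes lie below 10 CPM and have their shUHRF1 symbols to the right.

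Of the 34 genes, 18 passed edgeR's expression filter. Among these, 8 rose (Ptprc, Lyz2, Msr1, Ctss, C1qc, Mpeg1, Cd68 and Csf1), 1 fell (Coro1a) and 9 were not called. Over all 15573 tested genes 11.6% were called higher and 12.4% lower, and 48.4% of all calls were higher. Upper-quartile scaling turned this share to 64.6% and shifted the all-gene median log2 change to 0.142, from 0.017. Among the tested genes with a mean below 10 CPM, where 17 of the 18 lie, 14.3% were called higher and 3.82% lower. The median log2 change of such genes was 0.22, so the near-even split over all genes does not hold for them. Of the 8, Ptprc, Ctss, Msr1, Lyz2, C1qc and Cd68 did not meet the expression filter on shControl reads alone. They entered the test through their shUHRF1 reads, which tilts the count of 8 upward. The count of 8 became 5 without shControl replicate 2, without shControl replicate 3, without shUHRF1 replicate 2 or without shUHRF1 replicate 3. Over all genes the number called higher, 1807 in the main fit, was 1229, 822, 1814 and 1022 in these fits. Without shControl replicate 2 or 3, 4 of the 5 were among the 8. The count was 7 without shControl replicate 1 and 12 without shUHRF1 replicate 1, beside 933 and 1481 of all genes. With the library pairs numbered 1 and 3 alone it was 4, beside 1383. Ptprc, Msr1, Ctss and Mpeg1 were called in all 6 fits that left out 1 library. Among these genes only Mpeg1 met the filter on shControl reads alone.

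**Figure D2:**
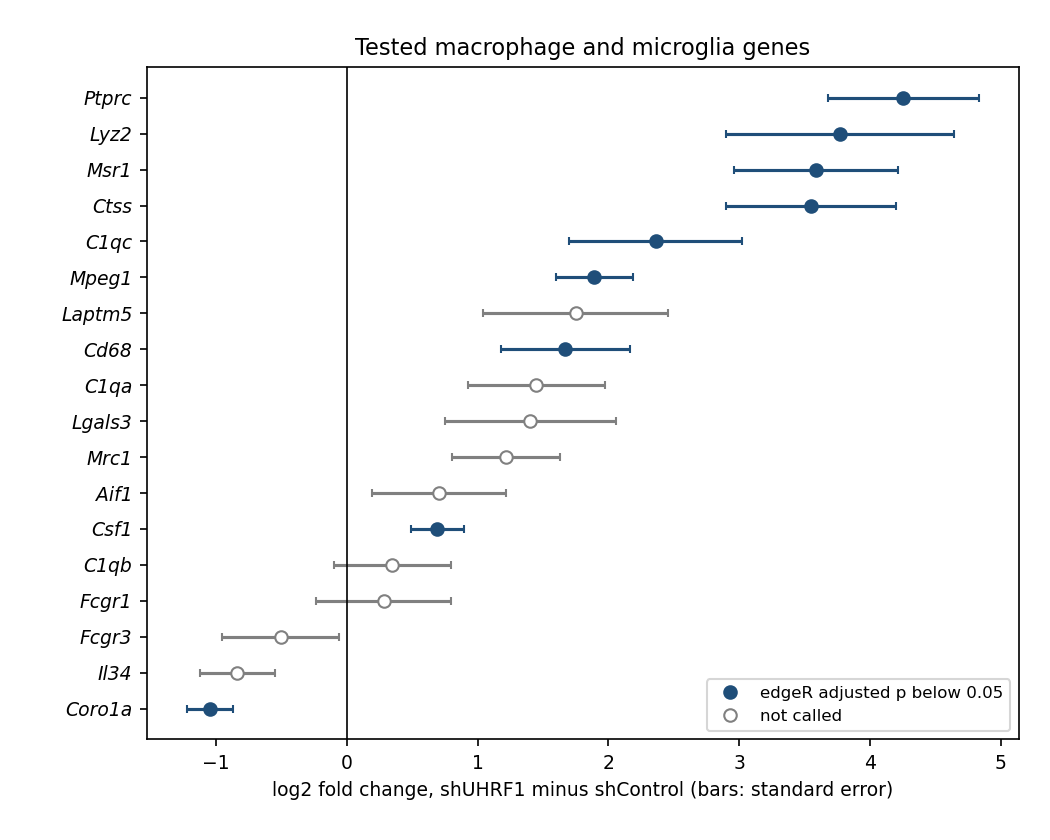
Log2 fold changes (shUHRF1 minus shControl, horizontal axis) with standard errors for the 18 genes that passed the expression filter, with genes called by edgeR as filled points. The largest, Ptprc, stands at 4.26 and the lowest, Coro1a, at -1.05.

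Both ligands of CSF1R, which other cells make for macrophages, were detected in every library, and only Csf1 was called. Csf1 stood at 6.68, 4.47 and 6.27 CPM in the shControl libraries and at 9.16, 9.36 and 9.69 CPM with shUHRF1. The groups did not overlap, and the shUHRF1 libraries lay close together. The rise of Csf1 was 0.69 ± 0.20 on the log2 scale (SE, edgeR adjusted p = 0.0399), a call that was lost in each of the 6 fits without 1 library (adjusted p 0.0605 to 0.117). Il34, the other ligand, stood at 4.01, 5.37 and 7.13 CPM in the shControl libraries and at 2.38, 3.30 and 3.58 CPM with shUHRF1. Every shUHRF1 library lay below every shControl library. Its log2 fold change of -0.84 ± 0.29 (SE) was not called (edgeR adjusted p = 0.0679), but was called by edgeR with the replicate number as a block (adjusted p = 0.0207).

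The receptor and the lineage factors were sparse. Csf1r had 5, 4 and 6 reads in shControl and 10, 28 and 4 reads in shUHRF1, and the groups overlapped. The ratio of pooled reads, scaled for depth, was 2.50 (95% interval 1.36 to 4.86). This and the other intervals are exact Poisson ones and cover counting error only. In Csf1r 15.1% of exon bases are shared with the opposite-strand gene Hmgxb3. Spi1 had 1, 2 and 0 reads in shControl and 4, 7 and 9 reads in shUHRF1, a pooled ratio of 5.96 (95% interval 1.77 to 31.3). Irf8, a partner of PU.1 in myeloid cells, had 0, 1 and 3 reads against 7, 9 and 8 reads, a pooled ratio of 5.37 (95% interval 1.84 to 21.3). For both lineage factors each shUHRF1 library lay above each shControl library, although neither gene passed the expression filter.

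Among the pan-leukocyte genes, Ptprc, which encodes the phosphatase CD45 found on nucleated blood cells, changed most. It had 1, 2 and 2 reads in shControl and 67, 25 and 25 reads in shUHRF1, or 0.0581 to 0.129 CPM against 3.01, 1.47 and 1.21 CPM. The log2 fold change was 4.26 ± 0.58 (SE, edgeR adjusted p = 0.00256). Cd53, a leukocyte tetraspanin, had 5, 0 and 1 reads in shControl and 10, 34 and 20 reads in shUHRF1, a pooled ratio of 9.54 (95% interval 4.15 to 27.0). Laptm5, a lysosomal membrane protein gene of blood cells, had 14, 1 and 7 reads against 23, 40 and 17 reads, just clear of overlap in CPM, and was not called (log2 fold change 1.75 ± 0.71, SE, edgeR adjusted p = 0.11), with 1.15 without shUHRF1 replicate 2 and 2.65 without shControl replicate 1. Neither gene shared Ptprc's order among the shUHRF1 libraries, since Ptprc was highest in replicate 1 and both of these in replicate 2.

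Coro1a, an actin-binding coronin of leukocytes that neurons also make, was the only gene of the 34 that edgeR called lower without a block. It carried 86.2% of all reads of the 34 genes in shControl and 57.4% in shUHRF1. Its level was 158, 173 and 171 CPM in the shControl libraries, against 59.2, 94.0 and 89.5 CPM with shUHRF1, with no overlap and the lowest value in shUHRF1 replicate 1. It fell by 1.05 ± 0.18 on the log2 scale (SE, edgeR adjusted p = 0.00573) and was called in all 6 fits without 1 library. Because of this gene the summed level of all 34 was lower in shUHRF1, at 102, 179 and 144 CPM against 189, 195.1 and 198.5 CPM. Without Coro1a the sum of the other 33 genes was 30.7, 21.8 and 27.6 CPM in shControl libraries, against 42.9, 85.3 and 54.6 CPM with shUHRF1, a ratio of group means of 2.28, and the groups did not overlap.

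**Figure D3:**
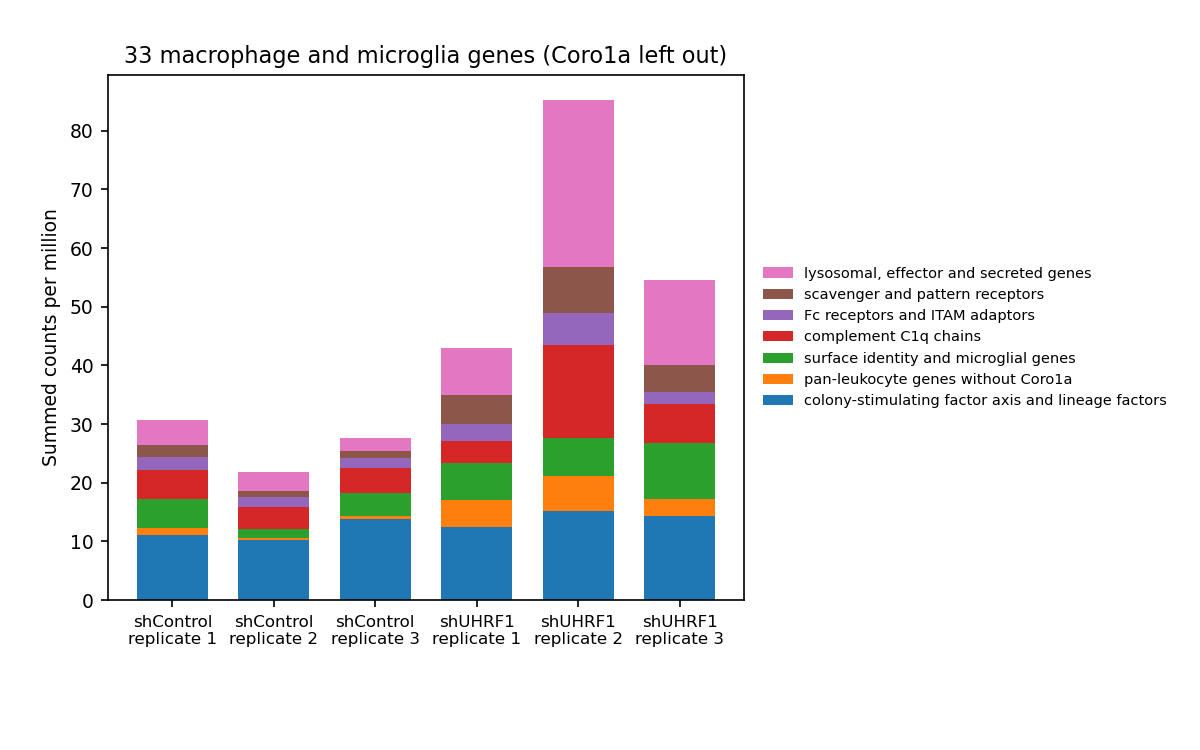
Summed CPM (vertical axis, from 0) of 33 macrophage and microglia genes in each of the 6 libraries, stacked by role, with Coro1a left out. The shControl bars reach 21.8 to 30.7 and the shUHRF1 bars 42.9 to 85.3, and the lysosomal, effector and secreted genes grow from 2.25 to 4.30 CPM in shControl to 7.90 to 28.4 CPM in shUHRF1.

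Surface genes that identify tissue macrophages and microglia were at or near 0 in shControl. Adgre1, which encodes the macrophage antigen F4/80, had 0, 0 and 2 reads in shControl and 9, 28 and 33 reads in shUHRF1, a pooled ratio of 31.3 (95% interval 8.35 to 264). Cx3cr1, the fractalkine receptor, had 0, 0 and 1 reads against 2, 18 and 6 reads (ratio 23.3, 95% interval 3.82 to 953). Both were higher in each shUHRF1 library, with replicate 1 the lowest of that group. Microglial genes were too sparse to compare closely. Tmem119, a microglial membrane protein gene, had 1 read in shControl and 9 in shUHRF1. The purinergic receptor gene P2ry12 had 13 and 14 reads, a ratio of 0.963 (95% interval 0.42 to 2.23). Itgam, the integrin chain CD11b, had 1 read in each group, but 68.7% of its exon bases are shared with a gene model on the same strand (Gm49368), where a read would be counted as ambiguous. Aif1, the actin-binding protein IBA1, was an exception in shControl, with 4.94, 1.04 and 3.78 CPM there and 5.57, 3.24 and 7.17 CPM in shUHRF1. The groups overlapped, and Aif1 was not called (log2 fold change 0.71 ± 0.51, SE, edgeR adjusted p = 0.361), with 0.28 without shControl replicate 2.

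The 3 chains of complement C1q, which assemble together into the opsonin that starts the classical pathway, all passed the filter, and 1, C1qc, was called. Their genes lie side by side on chromosome 4 (GRCm38, minus strand): C1qb at 136880129 to 136886187, C1qc at 136889804 to 136893065 and C1qa at 136895917 to 136898803. C1qc had 10, 5 and 9 reads in shControl and 20, 79 and 31 reads in shUHRF1. Its rise was 2.36 ± 0.66 on the log2 scale (SE, edgeR adjusted p = 0.0359) and 1.39 without shUHRF1 replicate 2. The call was kept in 1 of 6 fits without 1 library, that without shUHRF1 replicate 1, and was lost with limma-voom (adjusted p = 0.0863). C1qa had 19, 18 and 20 reads against 29, 92 and 45. Its groups did not overlap, and edgeR called it with the replicate number as a block (adjusted p = 0.0475) but not without it (log2 fold change 1.45 ± 0.52, SE, edgeR adjusted p = 0.08). Without shUHRF1 replicate 1 the unblocked fit called C1qa too (edgeR adjusted p = 0.0234), and without shUHRF1 replicate 2 its value was 0.67. C1qb had 54, 33 and 59 reads against 36, 99 and 61, which overlapped (log2 fold change 0.35 ± 0.45, SE, edgeR adjusted p = 0.618) and became -0.27 without shUHRF1 replicate 2.

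Within a library, the proportions of the chains did not overlap between the groups. In shControl there were 0.152 to 0.185 reads of C1qc for each read of C1qb, and in shUHRF1 0.508 to 0.798. For C1qa the ratio to C1qb was 0.339 to 0.545 in shControl and 0.738 to 0.929 in shUHRF1. Scaled by exon length as well as depth (RPKM, reads scaled per kilobase of exon and for library size), the group means in shControl were 2.48 for C1qb, 1.03 for C1qa and 0.23 for C1qc, and in shUHRF1 3.19, 2.85 and 1.22. These ratios were chosen after their values were seen.

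**Figure D4:**
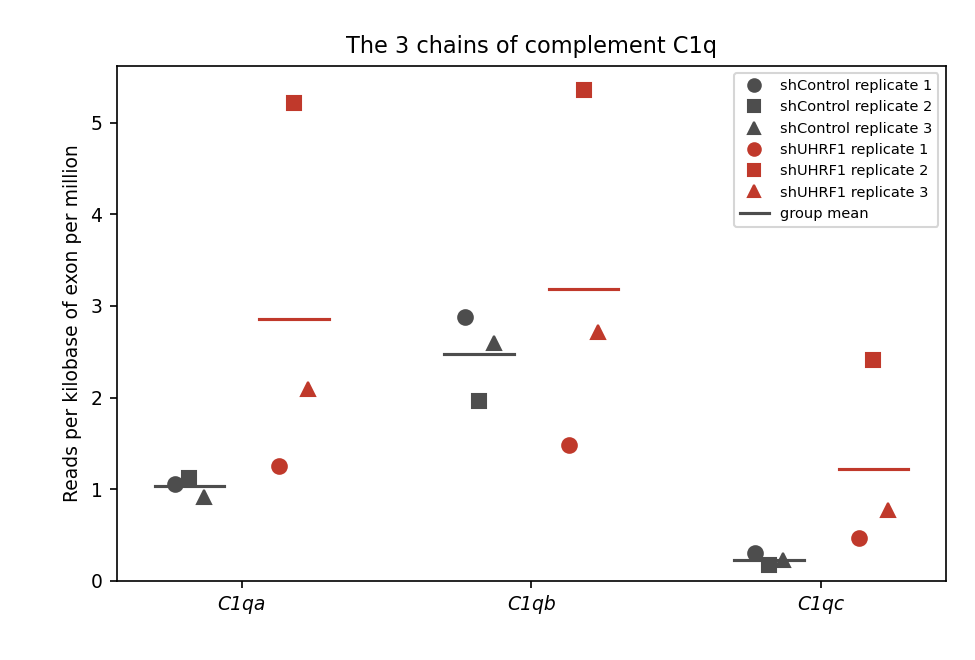
Length-scaled levels in RPKM (vertical axis) of the C1q chain genes in the 3 shControl (grey) and 3 shUHRF1 (red) libraries, with lines at the group means. C1qb is the highest chain in shControl at 1.96 to 2.88, C1qc is lowest at 0.168 to 0.301, and shUHRF1 replicate 2 is the highest library for all 3 chains.

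Fc receptor genes, the genes of the ITAM adaptors Tyrobp and Fcer1g, and Trem2 were mostly below the filter, which 2 of 6 passed. Tyrobp, which encodes the adaptor DAP12, had 4, 0 and 1 reads in shControl and 3, 28 and 7 reads in shUHRF1, and Trem2, a lipid receptor that signals through it, had 5, 2 and 1 reads against 12, 26 and 8 reads. Their pooled ratios were 6.80 (95% interval 2.67 to 22.1) and 5.14 (95% interval 2.40 to 12.6), and only Trem2 was higher in every shUHRF1 library. Fcer1g, the shared gamma chain, had 2, 4 and 2 reads against 3, 10 and 7, and the inhibitory receptor gene Fcgr2b had 0, 2 and 1 against 2, 6 and 3. The activating receptors passed the filter and were not called: Fcgr1 had 16, 12 and 14 reads against 38, 12 and 9 (log2 fold change 0.28 ± 0.52, SE, edgeR adjusted p = 0.739), which became -0.48 without shUHRF1 replicate 1. Fcgr3 had 11, 7 and 15 reads against 6, 11 and 8 (log2 fold change -0.51 ± 0.45, SE, edgeR adjusted p = 0.453), with -0.25 without shUHRF1 replicate 1 and -0.91 without shUHRF1 replicate 2. Reads of Fcgr2b and Fcgr3 are uncertain, since the extracellular parts of these genes are alike in sequence.

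Of the scavenger and pattern receptors, Msr1 rose. This scavenger receptor for modified lipoproteins had 10, 1 and 2 reads in shControl against 75, 56 and 49 reads with shUHRF1 (3.37, 3.30 and 2.37 CPM), and its shUHRF1 libraries were more even than those of Ptprc, Ctss and Lyz2. The log2 fold change was 3.59 ± 0.63 (SE, edgeR adjusted p = 0.00662), and 5.07 without shControl replicate 1. Mrc1, the mannose receptor CD206, had 1.39, 0.971 and 1.10 CPM against 1.66, 4.30 and 2.18 CPM. Every shUHRF1 library was higher, but the gene was not called (log2 fold change 1.22 ± 0.41, SE, edgeR adjusted p = 0.0665). Without shUHRF1 replicate 2 the value of Mrc1 was 0.70, and without shUHRF1 replicate 1 it was called (edgeR adjusted p = 0.0334). Cd14, the co-receptor for lipopolysaccharide, had 1 read in shControl and 6 in shUHRF1, and the hemoglobin receptor gene Cd163 had 2 and 1.

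Of the lysosomal and effector genes 4 of 5 tested rose, which is 4 of the 8 rises of the list. The share called higher was 11.6% among all tested genes and 14.3% among those with a mean below 10 CPM, where all 5 lie. Ctss, Lyz2 and Cd68 entered the test through their shUHRF1 reads, which tilts this count upward. Lyz2, lysozyme of myeloid cells, was measured at 0.755, 0.388 and 0.335 CPM in shControl libraries, against 1.03, 13.0 and 6.39 CPM with shUHRF1. Replicate 1 lay just above shControl and the other shUHRF1 libraries far above it. Its log2 fold change was 3.77 ± 0.87 (SE, edgeR adjusted p = 0.0182), a call lost without any 1 shControl library (adjusted p 0.0519, 0.0598 and 0.0776 without replicates 1, 2 and 3), and also with limma-voom (adjusted p = 0.117). Without shUHRF1 replicate 2 the value was 2.89. Reads of Lyz2 are uncertain, since Lyz1 is a close copy. In RPKM Lyz2 went from a mean of 0.374 to 5.18, beside means in shUHRF1 of 29.1 for Coro1a, 3.48 for Aif1 and 3.19 for C1qb.

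Ctss, cathepsin S of antigen-processing lysosomes, had 5, 1 and 2 reads in shControl and 31, 52 and 22 reads in shUHRF1. Its rise was 3.55 ± 0.65 on the log2 scale (SE, edgeR adjusted p = 0.00782), with 4.35 without shControl replicate 1 and 2.96 without shUHRF1 replicate 2. Mpeg1, the pore-forming perforin-2 of macrophages, was the most even rise of this group, from 0.755, 0.906 and 0.909 CPM to 3.10, 3.95 and 2.57 CPM. The groups lay well apart, with a log2 fold change of 1.89 ± 0.29 (SE, edgeR adjusted p = 0.00432). Cd68, a lysosomal glycoprotein, had 1.39, 0.842 and 0.431 CPM against 1.66, 4.06 and 2.76 CPM, a log2 fold change of 1.67 ± 0.50 (SE, edgeR adjusted p = 0.0432). The call of Cd68 was lost without shControl replicates 2 or 3 or without shUHRF1 replicates 2 or 3 (adjusted p 0.104 to 0.134). Lgals3, a galectin that stroma and injured neurons make too, was not called (0.813 against 2.16 CPM, log2 fold change 1.40 ± 0.65, SE, edgeR adjusted p = 0.158). Its value was 0.53 without shUHRF1 replicate 2, and it was called without shUHRF1 replicate 1 (edgeR adjusted p = 0.0469). The platelet chemokine gene Pf4 had 1 and 5 reads.

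The 16 genes that did not pass the filter had 74 reads in all in shControl and 397 in shUHRF1. Summed per library these were 27, 26 and 21 reads against 68, 212 and 117, with no overlap. Because every such gene had few shControl reads, this sum is a description of all 16 and no test was made. In a fit with no expression filter all 34 genes were tested and 15 were called higher, beside 6.75% of the 31421 genes in that fit. At least 10 pooled reads were found for 21601 of those genes and for 30 of the 34. The 6.75% thus covers proportionally more very sparse genes than the list. The unfiltered fit added Cd53, Adgre1, Cx3cr1, Tyrobp, Trem2, Laptm5, C1qa and Mrc1 and left out Csf1 (edgeR adjusted p = 0.0677).

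The shUHRF1 libraries did not rank alike. Of the 29 genes other than Coro1a with at least 10 pooled reads, 19 were highest in shUHRF1 replicate 2, 4 in replicate 3, 3 in replicate 1 and 3 in a shControl library. Replicate 1 was the lowest shUHRF1 library for 20 of the 29, yet it held the highest values of Ptprc, Msr1 and Fcgr1. For each read of Ptprc there were 0.343 reads of Lyz2 in replicate 1, 8.84 in replicate 2 and 5.28 in replicate 3. For Tyrobp the same ratios were 0.0448, 1.12 and 0.28. These ratios, chosen with results of these data known, differed among the 3 shUHRF1 libraries. That of Tyrobp in replicate 1 rests on 3 reads of Tyrobp. In shControl, on 1 or 2 reads of Ptprc per library, the ratios were 13, 3 and 3.5 for Lyz2 and 4, 0 and 0.5 for Tyrobp. The part that reads outside annotated genes, most frequent in replicate 2, had in the ranking of the shUHRF1 libraries was not tested.

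Promoters of the list were read for the letters that PU.1 is known to bind. RefSeq windows of GRCm38.p6, from 250 bases before to 50 after a gene's start, were at hand for 25 of the 34 genes, in 29 windows. The motif GAGGAAGT, searched on both strands, was in 4 of these windows (13.8%) and in 3.2% of all 32851 windows. The composite element of PU.1 and an interferon regulatory factor, which shares its GGAA core, was in 2 of them (6.9%) and in 0.731% of all windows, and 0 windows of the list held both. The windows with a match are shown as the stretch around it on the gene's strand, with the motif in capitals and 10 bases on each side. In all of them the capitals are the motif as read from the opposite strand.
Ctss, chr3:95526774-95526801, plus strand: atgaaagttcACTTCCTCattgtggatg
C1qc, chr4:136893092-136893119, minus strand: gacggcagacACTTCCTCattttggcac
Cd53, chr3:106790126-106790153, minus strand: actcagtctcACTTCCTCactcttctcg
Pf4, chr5:90772415-90772442, plus strand: tctgcagagcACTTCCTCatcctgtatc
Cd68, chr11:69666128-69666157, minus strand: aagtgaggctTTTCATTTCCtcttccaaga
Fcgr2b, chr1:170976087-170976116, minus strand: gaccgtttctTTTCACTTCCccatttggac
Of the genes with a match, Ctss, C1qc and Cd68 were called higher, and Cd53, Pf4 and Fcgr2b did not pass the expression filter. Of the tested genes with a window and no match, Ptprc, Lyz2, Mpeg1 and Csf1 were also called higher. Coro1a was called lower, and Laptm5, Aif1, C1qb, Fcgr1, Fcgr3, Mrc1 and Lgals3 were not called. Whether a match went with a rise was not tested. A match is a description of letters, not a bound site. The list's windows were poor in CpG, the dinucleotide whose hemimethylated form UHRF1 binds, with a median of 4 per window against 7 in all windows. At most 5 CpG stood in 18 of the 29 windows (62.1%), against 43.6% of all. Msr1, Adgre1, Spi1 and Tyrobp were among the genes without a window. A link of CpG content to UHRF1 or to the fold changes was not tested.

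A further 78 myeloid genes, from lists also chosen with results known, were read beside the 34. Of 31 that passed the filter, 15 rose and 2 fell, beside 11.6% and 12.4% of all tested genes. Among tested genes with a mean below 10 CPM these shares were 14.3% and 3.82%. Sparse genes of these lists, too, could enter the test through their shUHRF1 reads alone, which tilts the count of rises upward. Among lineage factors and receptors, Irf5, an interferon regulatory factor, rose from 1.29 to 4.97 CPM, by 1.93 ± 0.33 on the log2 scale (SE, edgeR adjusted p = 0.00603), while Tgfbr1, a receptor that many cell types make, rose from 26.2 to 78.2 CPM. Maf, also a neuronal factor, was not called (21.9 against 18.4 CPM, edgeR adjusted p = 0.638). The tyrosine kinase gene Syk, its substrate gene Plcg2 and the actin-bundling gene Lcp1 rose by log2 fold changes of 2.03, 2.86 and 2.07, and in the NADPH oxidase Ncf1 rose by 2.03 while Cyba was not called (edgeR adjusted p = 0.0931). The receptors Tlr4, Cd84 and C3ar1 rose by 2.80, 3.30 and 2.32. The call of Cd84 was lost without shControl replicates 2 or 3, and that of C3ar1 without any 1 shControl library or shUHRF1 replicate 3. Of the 15 rises 11 were called in all 6 fits without 1 library. Irf5 shares 14.1% of its exon bases with Tnpo3 and Ncf1 shares 11.1% with Gtf2ird2, both on the opposite strand.

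Among genes of phagocytic tissue macrophages, Gpnmb had 4.07, 0.906 and 1.24 CPM in shControl libraries, against 8.53, 33.9 and 15.6 CPM with shUHRF1. Its rise was 3.21 ± 0.66 on the log2 scale (SE, edgeR adjusted p = 0.0122), a call lost without shControl replicate 3. Mertk, a receptor for dying cells, rose by 2.78, Stab1 by 2.94 and Spp1 by 2.89, although the groups overlapped for Spp1 (edgeR adjusted p = 0.0481). The call of Spp1 was lost with the replicate number as a block (edgeR adjusted p = 0.0711) and without shControl replicates 2 or 3 or shUHRF1 replicates 2 or 3, with a value of 1.76 without shUHRF1 replicate 2. Ccl2, a chemokine that recruits monocytes, had 3, 2 and 3 reads in shControl and 181, 44 and 24 reads in shUHRF1, and was highest in the library with the most Ptprc. Lyve1, found on a subset of tissue macrophages and on lymphatic vessels, went the other way, from 38, 18 and 28 reads to 5, 1 and 3 reads, and fell by 3.35 ± 0.51 on the log2 scale (SE, edgeR adjusted p = 0.00396). Olfml3, a microglial gene, was called by edgeR only with the block (adjusted p = 0.00786 against 0.0854), as was Cebpb, a myeloid transcription factor, lower by a log2 fold change of -0.71 (adjusted p = 0.0295 against 0.08). Ly86 was lowest in the libraries numbered 1 of both groups, with 15, 672 and 534 reads in shControl and 8, 492 and 420 reads in shUHRF1. Of the exon bases of Spp1 18.8% are shared with the same-strand gene model Gm42793, and of Cebpb 20.7% with the opposite-strand gene Tmem189.

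Markers of other cells moved in the same libraries in part. Beside the counts that follow, 11.6% of all tested genes were called higher, and 14.3% of those with a mean below 10 CPM. Markers sparse in shControl could enter the test through their shUHRF1 reads alone, which tilts counts of rises upward. Of 10 fibroblast markers 8 were tested and all 8 rose, and the summed level of the 10 was 7.06 to 10.2 CPM with shControl, against 72.5, 127 and 165.5 CPM with shUHRF1, highest in replicate 3. Of 10 markers of Schwann cells and satellite glia 9 were tested and 8 rose. Their sum overlapped (233 to 273 against 70.9 to 366 CPM), but S100b, the tested marker that was not called, made up most of it. Without S100b the sum of the other 9 was 7.26 to 15.5 CPM with shControl, against 31.5, 85.2 and 64.0 CPM with shUHRF1, highest in replicate 2. The sum of 8 endothelial markers overlapped, at 36.1 to 38.9 and 27.1 to 40.9 CPM, most of it from Egfl7. Without Egfl7 the sum overlapped too, at 2.15 to 3.43 and 3.10 to 3.65 CPM, although Kdr (7 reads in shControl and 24 in shUHRF1) and Emcn (0 and 10) were higher without overlap and Tie1 (4 and 0) lower. The erythroid and megakaryocytic sum overlapped at 8.54 to 21.2 and 14.1 to 20.3 CPM. Of 8 markers of T and NK cells, Cd3d, Cd3e, Cd3g and Nkg7 had 0 reads in every library, and the 8 summed to overlapping levels. Of 6 mast cell markers Cma1, Fcer1a, Mcpt4 and Tpsb2 had 0 reads in every library, while Kit, which sensory neurons also make, rose from 99.5 to 201 CPM and Cpa3 from 0.279 to 0.752 CPM. Markers of B cells had 19 reads in shControl and 20 in shUHRF1, and those of neutrophils 9 and 16. The part that fibroblast and glial transcripts had in the levels of the macrophage list was not tested. The sums without S100b or Egfl7, and the genes Cebpb, Kdr, Emcn and Tie1, were chosen after their values were seen.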

How the data were processed

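Total RNA from 6 libraries was depleted of ribosomal RNA and made into cDNA with a SMARTer kit, per the labels' protocols. The authors deposited raw counts of reads per gene, 1 table per library. Tools named in the submitters' processing notes are STAR, HTSeq, FastQC and DESeq2, with build mm10. Their versions, the annotation and the strand option are not given in the sources used. Reads of overlapping genes on opposite strands therefore cannot be told apart. The 5 summary lines of each table name no gene, and were left out (outside genes 8.43% to 17.2%, ambiguous 2.12% to 2.27%, not uniquely aligned 30.5% to 37.3%). Symbols and coordinates came from GENCODE M21 (GRCm38), which matched 47224 identifiers and not 419.

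From the counts, genes passing filterByExpr were tested with edgeR 4.0.16 in R 4.3.3 (TMM factors, quasi-likelihood F test, two-sided, Benjamini-Hochberg over 15573 genes). CPM and RPKM were computed here, the latter with the union of annotated exons. Standard errors come from the F statistic. The fit was tested on simulated data with planted fold changes. The simulation used genes that passed the filter, a common spread for all of them and no effect shared by same-numbered libraries. It therefore does not cover the uneven spread of the sparse genes. Genes below the filter are given as reads, with exact Poisson intervals of the depth-scaled ratio. Single values with 3 against 3 libraries allow no exact permutation p below 0.1, so none was computed. Libraries of the same number deviated alike (correlations 0.326, 0.363 and 0.44), so a blocked fit on that number is reported where a named gene's call changed. The pairing is inferred from the data. Alternatives were DESeq2 1.42.0, limma-voom 3.58.1, RLE and upper-quartile factors, other filters, the block, and each library left out. The 34 genes, the other lists and the rule for named genes (every one of the 34; of other myeloid genes those called and the 2 most abundant tested per list) were chosen with earlier results of these data known. Some genes that this rule takes in are not reported here.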

Additional observations from a re-analysis of the deposited data

How the results depend on the processing

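Called members of the 34 numbered 8 higher and 1 lower, and the fits that left out 1 library gave 5 to 12 higher. No low-count filter gave 15 higher of 34 (6.75% of all genes in that fit, which kept every gene with a read). The filter of 2 CPM gave 3 of 7 tested (13.3%), and the library pairs numbered 1 and 3, chosen after seeing the data, gave 4. DESeq2 and the replicate block each gave 2 lower, Coro1a and Il34. Of the 78 other myeloid genes 31 were tested, and 15 were higher and 2 lower, beside 11.6% and 12.4% of all tested genes. With no filter 25 of 78 were higher (6.75% of all genes), and with the filter of 2 CPM 8 of 14 tested (13.3%). The lower count was 1 to 2 without 1 library, 1 with upper-quartile factors, 1 with pairs 1 and 3, 3 with the replicate block, and 0 with the filter of 2 CPM by edgeR, where 2 had an unadjusted p below 0.05. All called genes numbered 3735, and 1768 to 3888 without 1 library. The ratio of summed CPM of the 34 genes was 0.73, and turned to 2.28 without Coro1a and to 3.18 without Coro1a, Csf1, Il34 and Lgals3, sums chosen in part after seeing the data. The log2 fold change of C1qb ranged from -0.27 (without shUHRF1 replicate 2) to 0.69 without 1 library, and was -0.39 with pairs 1 and 3. That of Fcgr1 ranged from -0.48 (without shUHRF1 replicate 1) to 0.61. The causes were not tested. The replicate block changed the call of C1qa and Il34 and of no other gene among the 34, and of Cebpb, Olfml3 and Spp1 among the 78. With means below 1 CPM for 27 of the 34 genes in shControl, depth limits what the libraries can resolve for single genes.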
